A study of Mus musculus with 4 samples.

Results

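Cell cycle and mitosis genes were picked from the tables by gene symbol alone, with a name pattern that takes Mki67, Top2a, the Mcm helicase subunits, the A, B, D and E cyclins, the numbered cyclin-dependent kinases (Cdk), Cdc6, Cdc20, Cdc45, the Cdc25 phosphatases, the kinesins (Kif), the lettered centromere proteins (Cenp), the Bub checkpoint genes, the Aurora and polo-like kinases (Plk) and Birc5. The pattern uses no measured value, although it was chosen with earlier results of these data known. The pattern found 73 genes of the 13067 with an entry in any table. It also matches 111 protein-coding genes of RefSeq, the NCBI's curated gene set, and 38 of them, among them Cdk1, Ccnb1, Cdc20, Bub1, Mcm6 and Cdk6, had no listed peak. The symbols bring together genes of unlike function, since many numbered kinases and kinesins have no part in cell division, so the members are described below by role.

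The macrophages were grown from bone marrow of C57BL/6 mice in macrophage colony-stimulating factor (M-CSF), the growth factor that drives marrow progenitors to divide and become macrophages, for 7 days. KO cells were LysM-cre Mettl3 fl/fl and WT cells were Mettl3 fl/fl without Cre, so both genotypes carried the floxed allele. LysM-cre expresses Cre recombinase from the lysozyme 2 locus, which is active in myeloid cells and increasingly so as macrophages mature, so cells that still hold Mettl3 can remain in a culture. The floxed exons, the number of animals behind each library and their age are not given in the sources used here. Each genotype had 1 immunoprecipitated (IP) library and 1 input library, 4 in all. No difference below has a replicate behind it, no test of KO against WT cells was possible, and intervals cover counting error only.

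METTL3 is the catalytic subunit of the nuclear complex that writes N6-methyladenosine (m6A) on messenger RNA, mostly within a GGAC-type sequence, in long internal exons and around stop codons. In this assay, pieces of poly(A) RNA are pulled down with an antibody to the mark, and a peak is a stretch of transcript with more IP than input reads. The antibody also binds m6Am, a mark beside the cap that another enzyme makes, so a peak at a transcript start can hold either mark. Transcripts of dividing cells rise and fall in turn through the cycle: licensing factors and E cyclins before S phase, mitotic kinases, kinesins and centromere proteins up to division. The decay of methylated transcripts is among the steps that m6A is known for.

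Mettl3 itself gave no check on the labels. It had 1 peak in the KO list, at 1.35-fold with a false discovery rate (FDR) of 0.0759, and 0 peaks in the WT list, and its input level was not analysed here because levels are listed only for genes with a differential peak. Of 10 macrophage markers 6 had a listed level, with a summed input of 8236 FPKM (fragments scaled to transcript length and library size) in KO cells and 12093 FPKM in WT cells. The lower sum in KO cells was that of Lyz2, the gene of the Cre locus, at 6620 FPKM in KO cells and 10500 FPKM in WT cells. Adgre1, Cd14, Fcgr1 and Spi1 were higher in KO cells, such as Cd14 at 198 FPKM in KO cells and 153 FPKM in WT cells, and Cd68 was at 994 FPKM in KO cells and 1030 FPKM in WT cells. Of 9 neutrophil markers 2 had a listed level, S100a8 and S100a9, with sums of 136.5 FPKM in KO cells and 233.0 FPKM in WT cells. Nfatc1, of the osteoclast markers, had 8.34 FPKM in KO cells and 7.0 FPKM in WT cells. Cd79b, of the B cell markers, had 0.734 FPKM in KO cells and 1.12 FPKM in WT cells. No listed level was found for the dendritic, T and NK cell, erythroid, mast cell, stromal or blood progenitor markers, which does not show that they were absent. KO and WT peaks were found in 5 and 2 osteoclast, 3 and 2 dendritic, 3 and 3 stromal, and 2 and 1 blood progenitor markers. T and NK cell markers had 0 in both lists. The part of these differences in the results below was not tested.

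Some of the strongest or most unequal peaks lay at or just inside transcript starts, and the sequences there are shown because the start is where m6A and m6Am cannot be told apart by the antibody. The lines give 30 bases before the RefSeq start in lower case and the first 30 transcribed bases in capitals, 5′ to 3′ on the transcribed strand, from RefSeq on GRCm38.p6. A listed peak covered the start base itself in both lists for Cdk12 and Cdk13 and in the WT list for Kif3b, and all 3 had a differential peak within the first 50 bases. Peaks of Mki67, in both lists, and of Mcm7, in the WT list alone, reached into the first 50 bases without covering the start base.
Cdk12: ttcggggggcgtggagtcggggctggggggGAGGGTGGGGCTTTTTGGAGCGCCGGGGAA
Cdk13: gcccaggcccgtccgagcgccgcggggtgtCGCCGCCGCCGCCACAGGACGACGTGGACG
Kif3b: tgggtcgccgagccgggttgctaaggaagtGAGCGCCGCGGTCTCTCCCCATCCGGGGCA
Mki67: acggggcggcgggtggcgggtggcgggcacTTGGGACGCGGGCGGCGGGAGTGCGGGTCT
Mcm7: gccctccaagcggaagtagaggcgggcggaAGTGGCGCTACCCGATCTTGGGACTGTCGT
The Cdk12 window is chr11:98203275-98203334 (plus strand), that of Cdk13 is chr13:17805068-17805127 (minus strand) and that of Kif3b is chr2:153291386-153291445 (plus strand). The Mki67 window is chr7:135716350-135716409 (minus strand) and that of Mcm7 is chr5:138171237-138171296 (minus strand). The first base at the RefSeq start was G in Cdk12 and Kif3b, C in Cdk13, T in Mki67 and A in Mcm7. The start used in these cells was not measured. The letters GGAC were looked for on the transcribed strand in the first 50 transcribed bases. They began at bases 17 and 26 in Cdk13, at base 4 in Mki67 and at base 21 in Mcm7, counted from 1 at the start, and were not found in that window of Cdk12 or Kif3b. Of the 20 member starts with a member peak in those 50 bases, 6 (30.0%) held the letters, and of the 15 whose start base lay under a peak 3 did, against 20 of the 68 starts (29.4%) of the 58 members found in the start table and 6194 of all 32851 starts (18.9%). A match describes the letters and is neither a methylated site nor a cause.

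The KO list held 128 peaks in 62 members, of 21031 peaks in all, and the WT list held 107 peaks in 51 members, of 16709. Fold enrichment (IP over input), p and FDR of each peak are the authors' own values, and each list was called on its own library pair. 40 members had a peak in both lists, 22 in the KO list alone and 11 in the WT list alone. Of all genes, 11675 had a KO peak and 9875 a WT peak, and 8515 had a peak in both lists. Of the member peaks, 70 of 128 (54.7%, 95% Clopper-Pearson interval 45.7 to 63.5) had an FDR below 0.05 in the KO list, beside 64.9% of the whole list. In the WT list 64 of 107 did (59.8%, 49.9 to 69.2), beside 70.2% of the whole list. In both lists the whole list's share lay just above the interval of the members' share, a difference that was not tested. Their median fold was 3.94 in the KO list (range 1.29 to 18.9, whole list 3.15) and 3.92 in the WT list (range 1.5 to 22.7, whole list 3.74).

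**Figure D1:**
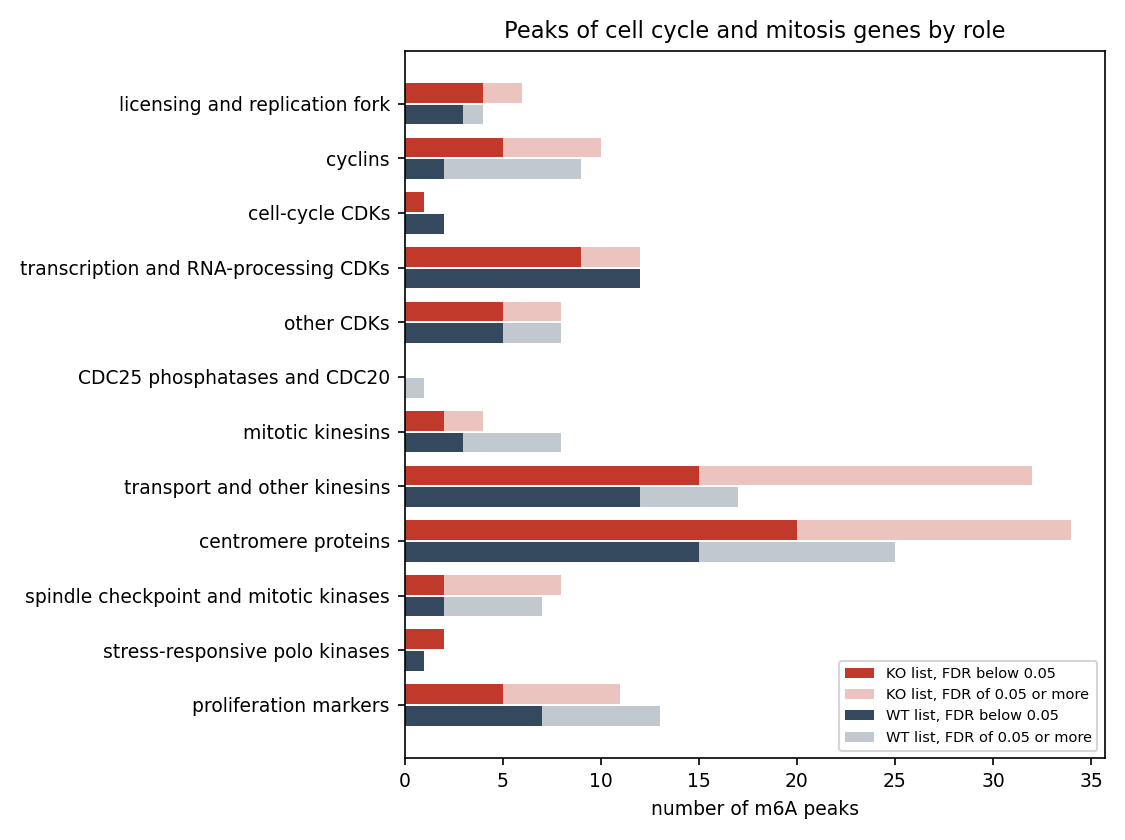
Number of member peaks by role in the KO list and the WT list, with the share at an FDR below 0.05 marked apart from the rest. Transport and other kinesins had 32 peaks in the KO list and 17 in the WT list, while transcription and RNA-processing Cdk genes had 12 in each.

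Overlap between the lists was read on exonic blocks, with 1 shared base counted as overlap. Of the KO peaks of members 64 of 128 (50.0%, 41.0 to 59.0) overlapped a WT peak, beside 61.6% of all KO peaks. Of the WT peaks of members 70 of 107 (65.4%, 55.6 to 74.4) overlapped a KO peak, beside 73.4% of all WT peaks. The member shares lay close to the lists' own once the FDR was below 0.05, at 77.1% of KO peaks (whole list 76.4%) and 84.4% of WT peaks (whole list 85.8%). At an FDR of 0.05 or more, 17.2% of the KO peaks of members overlapped a WT peak (whole list 34.2%) and 37.2% of their WT peaks overlapped a KO peak (whole list 44.1%). A member peak found in 1 list was mostly a peak with a high FDR. Of the KO peaks, 7 in Ccnd2, Cenpf, Cenpk, Kif24, Kif7 and Kif9 shared exactly 7.08-fold and p 0.039, a pair of values that 785 KO peaks carried. Of the WT peaks, 5 in Ccne2, Cdk15, Cenpe, Kif18a and Kif23 shared 7.14-fold and p 0.033, as did 488 WT peaks. None of these repeated values had an FDR below 0.05, the lowest in either list being 0.227 among such KO peaks and 0.185 among such WT peaks.

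The strongest member peak by p in both lists was that of Cenpb, with a −log10 p of 2320 in the KO list and 2790 in the WT list. The 3′UTR peak of Cdk9 was next, with a −log10 p of 535 in the KO list and 1020 in the WT list, and Kif3b had 349 in the KO list and 436 in the WT list. At a p of at most 1e-10 there were 17 member peaks in the KO list (13.3%, whole list 24.5%) and 20 in the WT list (18.7%, whole list 30.8%). Transcription and other Cdk genes, transport kinesins and Plk2 held 15 of the 17 KO peaks and 16 of the 20 WT peaks. The others were in Cenpb and Cenpo in the KO list and in Cenpb, Cenpl and Cenpo in the WT list, and the Cenpo peak of this strength in the KO list, like 1 of those in the WT list, lay under Ncoa1, a neighbouring coactivator gene.

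**Figure D2:**
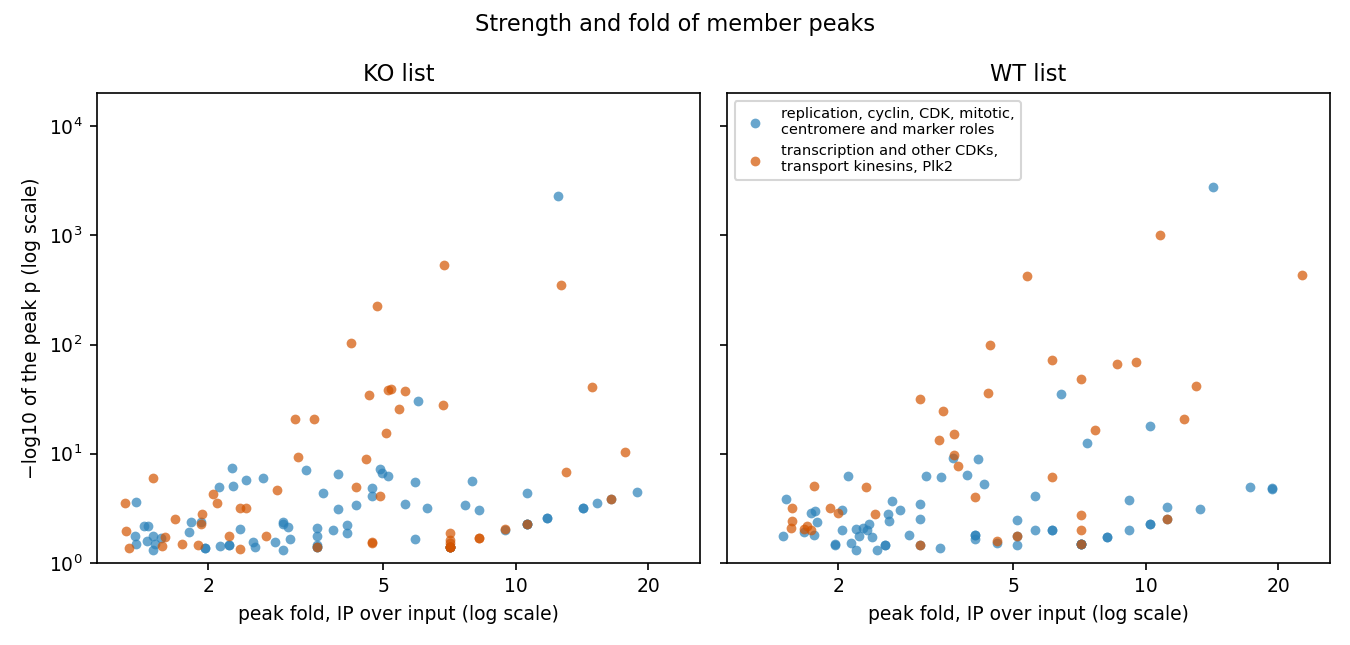
Fold enrichment of each member peak (x axis, log scale) against −log10 of its p (y axis, log scale), KO list on the left and WT list on the right. Cenpb is the highest point in both, and points of transcription and other Cdk genes, transport kinesins and Plk2 make up 15 of the 17 KO peaks and 16 of the 20 WT peaks at a p of at most 1e-10, while high folds also occur at weak p.

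A direct comparison of enrichment exists only in the authors' deposited table of KO against WT peaks, which gives a log2 ratio of KO over WT enrichment for 6050 peaks and lists none with a p above 0.049. The table holds 23 peaks of 17 members, and member peaks outside it have no ratio here. Of the 23 in the authors' deposited table, 18 were lower in KO (78.3%, 56.3 to 92.5) and 5 were higher, beside 69.6% lower over the whole table. At an FDR below 0.05, reached by 15 of the 23 beside 79.6% of the table, the authors' deposited table has 14 lower and 1 higher, beside 71.6% lower. The members' median log2 ratio in the authors' deposited table was −0.45, near the table's own median of −0.40, and 12 of the members' peaks lay below that median and 11 above it. The 18 lower peaks in the authors' deposited table had a median ratio of 0.66 of WT enrichment (0.683 for all lower peaks). The authors' FDR compares 1 pair of libraries with another and not the genotypes. The members' peaks in the table leaned lower in KO about as all peaks listed there did.

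**Figure D3:**
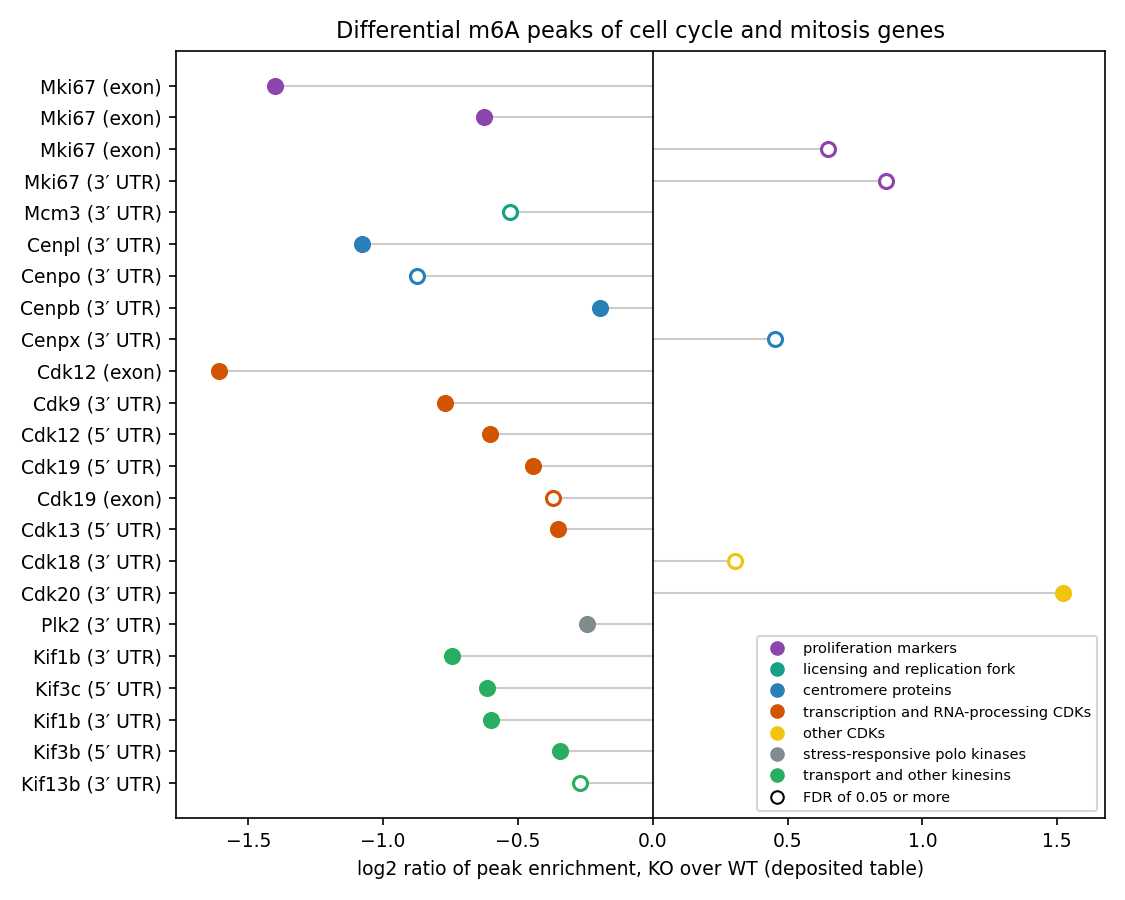
The authors' log2 ratio of KO over WT peak enrichment (x axis) for the 23 differential peaks of members (down the page) grouped by role, filled where the FDR is below 0.05. Of these, 18 peaks lie below 0, from −1.61 at Cdk12 upward, and 5 above 0, up to 1.52 at Cdk20.

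Licensing and replication genes load and run the MCM helicase at replication origins. They had 6 KO peaks, 4 of them at an FDR below 0.05, and 4 WT peaks, 3 of them so. Mcm7, a helicase subunit, had a WT peak just inside its start at 19.4-fold (FDR 0.000148) and 0 KO peaks. Mcm4 and Mcm5, also helicase subunits, had peaks in the KO list alone, at 8.27-fold (FDR 0.00741) and 9.45-fold (FDR 0.204). Mcm2 likewise had a KO peak alone, at 2.95-fold (FDR 0.0302). Subunits of 1 helicase thus stood in different lists. Cdc6, which loads the helicase, had a 3′UTR peak at 7.97-fold (FDR 2.45e-05) in the KO list and at 5.61-fold (FDR 0.0631) in the WT list. Mcm3 had the only differential peak of this role, with a log2 ratio of −0.53 and an FDR of 0.109 in the authors' deposited table. The Mcm3 peak there, chr1:20803146-20803355, lay in the 3′UTR and was at 1.81-fold in the KO list and 2.10-fold in the WT list.

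Cyclins switch on the cell-cycle kinases and had 10 KO peaks, 5 at an FDR below 0.05, and 9 WT peaks, 2 at an FDR below 0.05. None of their peaks is in the differential table. Ccnd2, the D cyclin that couples growth factor signals to the cycle, had 5 KO peaks between 2.95-fold and 7.08-fold and 4 WT peaks between 6.12-fold and 10.2-fold. Its start-proximal peak was at 6.30-fold (FDR 0.00562) in the KO list and at 6.12-fold (FDR 0.0631) in the WT list. Ccnd3 had a 3′UTR peak at 2.44-fold (FDR 1.86e-05) in the KO list and at 2.65-fold (FDR 0.00162) in the WT list, at a place also covered by the neighbouring Bysl gene. Ccnd1 peaks were weak, at 1.45-fold in the KO list and at 1.5-fold and 2.23-fold in the WT list, all with an FDR of 0.104 or more. Of the E cyclins, which bring cells into S phase, Ccne1 was at 2.23-fold (FDR 0.204) in the KO list alone. Ccne2 was at 7.14-fold (FDR 0.571) in the WT list alone, at a place also under Ints8. Neither peak passed the FDR. The peak assigned to the mitotic cyclin Ccnb2 lay outside it, under Rnf111, at 4.92-fold in the KO list and 2.45-fold in the WT list. Of the kinases they switch on, Cdk4 had a 3′UTR peak at 1.37-fold (FDR 0.0024) in the KO list and 1.52-fold (FDR 0.00112) in the WT list, under Tspan31 as well. Cdk2 had a WT peak alone at 11.2-fold (FDR 0.0195), a place shared with Pmel.

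Mitotic kinesins build the spindle and carry out cytokinesis, and they had 4 KO peaks, 2 at an FDR below 0.05, and 8 WT peaks, 3 at an FDR below 0.05. None was in the differential table. Kif14, which acts in cytokinesis, was at 14.2-fold (FDR 0.00537) in the KO list and 13.3-fold (FDR 0.00589) in the WT list. Kif20b, also a cytokinesis motor, had a 3′UTR peak at 10.6-fold (FDR 0.000479) in the KO list and 2 peaks at 11.2-fold (FDR 0.00447) and 3.06-fold (FDR 0.02) in the WT list. These were the mitotic kinesins with peaks past the FDR in both lists. Kif22, a motor that binds chromosome arms, was listed in KO alone at 5.90-fold (FDR 0.132). Kif18a and Kif23, which act on chromosome alignment and the central spindle, were listed in WT alone at 7.14-fold, and Kif2c, a microtubule depolymerase, in WT alone at 4.08-fold, with FDRs of 0.0933 or more.

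Checkpoint and mitotic kinase genes had 8 KO peaks, 2 at an FDR below 0.05, and 7 WT peaks, 2 at an FDR below 0.05, the lowest FDR shares of the larger roles in the KO list. Aurkb, the kinase of the chromosomal passenger complex, had 1 KO peak at 4.13-fold (FDR 0.0417) and 3 WT peaks at 5.10-fold, 8.16-fold and 9.18-fold, of which the 5.10-fold peak had an FDR below 0.05. Plk4, the kinase that starts centriole duplication, had a KO peak of 3 blocks, labelled 3′UTR, at 4.72-fold (FDR 0.000148). It overlapped 3 WT peaks, at 4.08-fold (FDR 0.0933), 5.10-fold (FDR 0.104) and 3.43-fold (FDR 6.61e-06). Other Plk4 KO peaks, at 10.6-fold (FDR 0.0617) and, under Hspa4l, at 4.13-fold (FDR 0.0851), overlapped no WT peak. Aurka, Birc5 and Plk1, which act at spindle poles, in the passenger complex and through mitosis, had KO peaks alone. These were at 2.23-fold (FDR 0.204), 1.5-fold (FDR 0.108) and 3.54-fold (FDR 0.228), none of them past the FDR. Bub3, a spindle checkpoint protein, was at 1.36-fold in the KO list and 2.32-fold in the WT list, in peaks that did not overlap. None of the members of this role had a differential peak.

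Centromere proteins form the base on which kinetochores are built, and they had 34 peaks in the KO list, 20 of them at an FDR below 0.05, and 25 in the WT list, 15 of them so. Among these are 3 KO and 5 WT peaks of Cenpj, and some peaks assigned to Cenpo that lay under its neighbours Ncoa1 and Ptrhd1. Cenpb, which binds a repeat in centromeric DNA, had a peak at 12.5-fold in the KO list and 14.2-fold in the WT list. The Cenpb log2 ratio was −0.19 with an FDR of 5.01e-25 in the authors' deposited table, the smallest lower ratio among members and the second-lowest FDR. Cenpl, of the constitutive centromere network, had 5.90-fold in the KO list and 10.2-fold in the WT list at chr1:161082917-161083577. That Cenpl peak had a log2 ratio of −1.08, or 0.473 of WT, with an FDR of 0.00363 in the authors' deposited table. Cenpo, of the same network, had 3.94-fold in the KO list and 7.35-fold in the WT list at chr12:4214289-4214589. Its log2 ratio was −0.87 with an FDR of 0.107 in the authors' deposited table. Cenpx, a histone-fold protein shared with the Fanconi anaemia core complex, had a KO peak alone at 2.12-fold, and its log2 ratio was 0.46 with an FDR of 0.109 in the authors' deposited table.

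The large kinetochore proteins Cenpe and Cenpf carried many peaks in internal exons. Cenpf, which binds kinetochores and the nuclear envelope in G2 and mitosis, had 8 KO peaks and 4 WT peaks, and its strongest were at 18.9-fold (FDR 0.000363) in the KO list and 19.4-fold (FDR 0.000129) in the WT list, both in exon 12 of 18. These were the highest fold of the KO member peaks and, with Mcm7, the second highest of the WT member peaks. A Cenpf KO peak of 10.6-fold (FDR 0.119) is labelled 3′UTR by the authors although it covers the RefSeq start, the only one of 8 member KO peaks over a start with that label. Cenpe, a kinesin that brings chromosomes to the spindle middle, had 8 KO peaks from 2.53-fold to 15.3-fold and 4 WT peaks from 3.06-fold to 10.2-fold, and 1 of the 8 overlapped a WT peak. Cenpj, which despite its symbol is a centriole protein, reached 16.5-fold (FDR 0.00141) in the KO list and 4.59-fold (FDR 0.168) in the WT list. In exon 7 of 17, where its strongest KO peak lay, the Cenpj WT peaks were at 4.29-fold and 2.61-fold. Cenpk and Cenpt, both of the constitutive network, were listed in KO alone at 7.08-fold (FDR 0.689) and 10.6-fold (FDR 0.119), and Cenph in WT alone at 5.10-fold (FDR 0.192).

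Of the proliferation markers, Mki67 encodes the Ki-67 protein that coats mitotic chromosomes, and it had 7 KO peaks, 4 of them at an FDR below 0.05, and 13 WT peaks, 7 of them so. Exon 12 of 14 held 3 of the KO peaks and 8 of the WT peaks, and a further KO peak, labelled exon 10, ran into it. The peak just inside its start was at 3.65-fold (FDR 0.000468) in the KO list and 2.76-fold (FDR 0.00631) in the WT list, with no listed difference. Within exon 12 the differences ran both ways. The peak at chr7:135698883-135699034 was at 3.92-fold in the WT list with no KO peak over it, and its Mki67 log2 ratio was −1.40 with an FDR of 0.0316 in the authors' deposited table. The next, chr7:135700410-135700860, was at 3.34-fold in the KO list and 3.64-fold in the WT list, and its Mki67 log2 ratio was −0.63 with an FDR of 0.0398 in the authors' deposited table. Between them, chr7:135699811-135700202 was at 3.34-fold in the KO list and 1.76-fold in the WT list, with a log2 ratio of 0.65 and an FDR of 0.0977 in the authors' deposited table. The last 2 of these positions lie within 1 KO peak and so share its fold. The Mki67 3′UTR peak was at 2.66-fold in the KO list and 1.67-fold in the WT list, with a log2 ratio of 0.87 and an FDR of 0.105 in the authors' deposited table. Top2a, the topoisomerase that untangles sister chromatids, had 4 KO peaks between 1.56-fold and 2.13-fold, 1 of them at an FDR below 0.05, and 0 WT peaks.

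**Figure D4:**
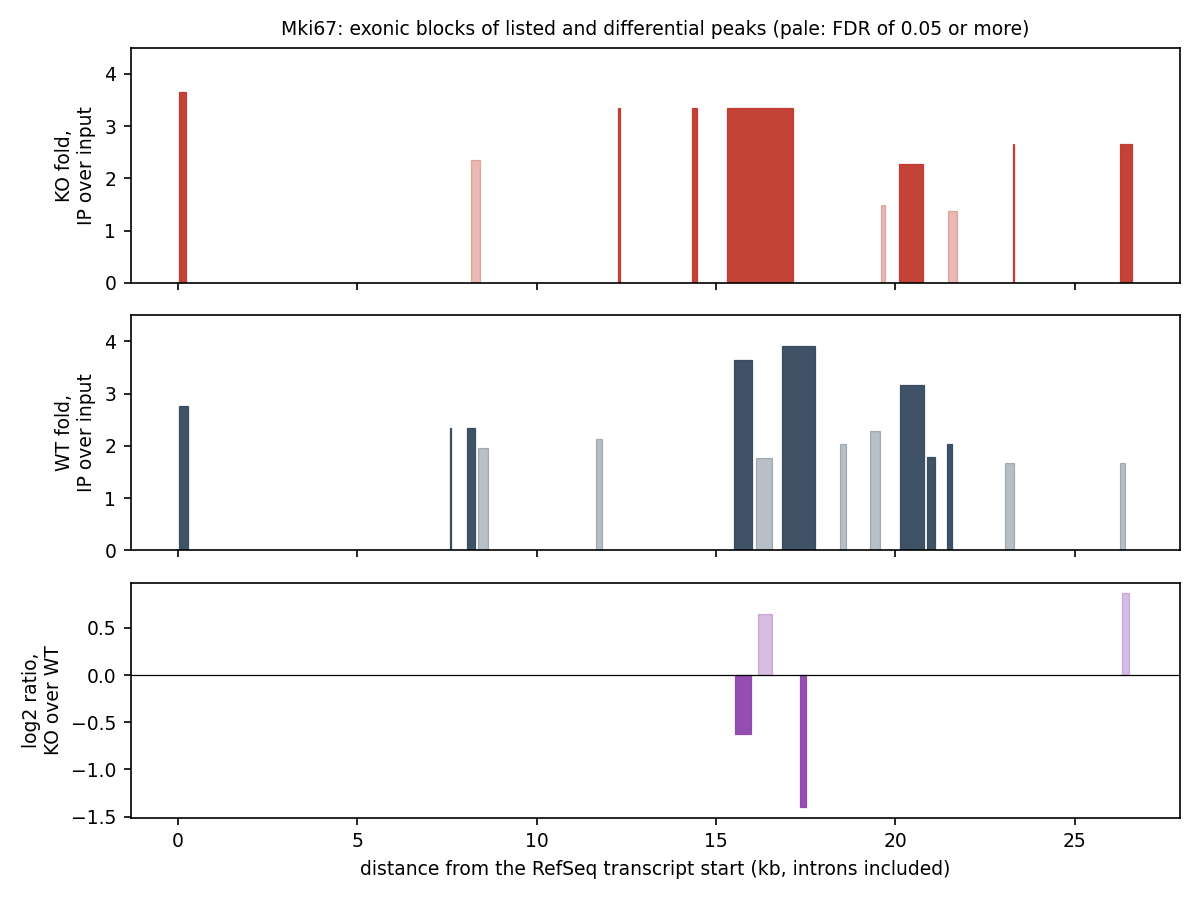
Exonic blocks of the Mki67 peaks by distance from the RefSeq start (x axis, kb with introns), as fold enrichment in the KO list (top) and WT list (middle) and as the authors' log2 ratio of KO over WT (bottom), pale where the FDR is 0.05 or more. The lower ratios of −1.40 and −0.63 and the higher ratio of 0.65 stand side by side in exon 12.

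Transcription and RNA-processing Cdk genes share a name with the cell-cycle kinases but phosphorylate RNA polymerase II and the Mediator complex. They had 12 peaks in each list, 9 in the KO list and all 12 in the WT list at an FDR below 0.05, and all 6 of their differential peaks were lower in KO, 5 of them at an FDR below 0.05 in the authors' deposited table, where 69.6% of all peaks and 71.6% of those at that FDR are lower. Of the 6, 2 are Cdk19 positions in the same listed peaks. Cdk12, which phosphorylates the polymerase tail during elongation, had the lowest ratio of any member, in exon 14 of 14 at chr11:98249692-98250083. There a WT peak of 7.65-fold had no KO peak over it, and the Cdk12 log2 ratio was −1.61, or 0.328 of WT, with an FDR of 1.82e-05 in the authors' deposited table. The start peak of Cdk12, chr11:98203118-98204169, had a log2 ratio of −0.60 with an FDR of 0.00145 in the authors' deposited table, although the peak lists gave 17.7-fold in KO and 3.38-fold in WT. Ratio and list folds thus point in opposite directions for the Cdk12 start. Cdk9, the kinase that releases paused polymerase, had 6.86-fold in the KO list and 10.8-fold in the WT list over its 3′UTR at chr2:32707399-32709775. Its log2 ratio there was −0.77 with an FDR of 5.01e-62, the lowest FDR of any member in the authors' deposited table. The start-side peak of Cdk9, by contrast, was at 4.21-fold in the KO list and 4.42-fold in the WT list and has no listed difference.

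Cdk13, the close relative of Cdk12, had a peak of 5 blocks from its start into the gene body at 5.61-fold in the KO list and 8.60-fold in the WT list. The Cdk13 log2 ratio was −0.35 with an FDR of 0.00012 in the authors' deposited table. Cdk19, a Mediator kinase, had overlapping peaks at 5.2-fold and 5.11-fold in the KO list and 6.12-fold and 9.52-fold in the WT list. The Cdk19 log2 ratios were −0.45 (FDR 0.00219) and −0.37 (FDR 0.0676) in the authors' deposited table, for positions that lie in the same peaks and are not separate evidence. Cdk7, which activates other Cdk proteins and sits in a transcription factor complex, had a WT peak of 3.74-fold that lay under Mrps36. Its KO peak, of 1.59-fold (FDR 0.12), lay within Cdk7 and did not overlap that WT peak. A KO peak of 1.35-fold that is not assigned to Cdk7 did overlap it. Cdk7 had no listed difference.

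The other Cdk genes, whose proteins act mostly outside the division cycle, had 8 peaks in each list, 5 at an FDR below 0.05 in each. Both of their differential peaks were higher in KO, 1 of them at an FDR below 0.05. Over the whole of the authors' deposited table, 69.6% of peaks are lower. Cdk20, a kinase with roles in cilia and cell growth, had a 3′UTR peak at chr13:64439464-64439765, at 5.08-fold in the KO list and 4.08-fold in the WT list. The Cdk20 log2 ratio was 1.52, or 2.87 times WT, with an FDR of 2.57e-05, the highest ratio of any member and the only higher one with an FDR below 0.05 in the authors' deposited table. Cdk18 had a log2 ratio of 0.31 with an FDR of 0.0794 in the authors' deposited table, although its list folds were 1.5 in KO and 1.57 in WT. Cdk16, a relative of Cdk18, was listed in KO alone at 13.0-fold (FDR 1.95e-06). Cdk5, a kinase best known in neurons, was listed in KO alone at 4.72-fold (FDR 0.172) and 1.93-fold (FDR 0.0117). Cdk15 was listed in WT alone at 7.14-fold (FDR 0.344).

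Transport and other kinesins move vesicles, organelles and ciliary cargo along microtubules, and they had 32 KO peaks, 15 at an FDR below 0.05, and 17 WT peaks, 12 at an FDR below 0.05. All 5 of their differential peaks were lower in KO, 4 at an FDR below 0.05 in the authors' deposited table, where 69.6% of all peaks are lower, and 2 of the 5 are Kif1b positions within 1 WT peak. Kif3b, a motor subunit of ciliary and vesicle transport, had the highest WT fold of any member, 22.7-fold, and 12.7-fold in the KO list, in a peak of 9 blocks that ran from near the start through the coding exons. The WT peak covered the RefSeq start and the KO peak began downstream of it, at position 153291472. The Kif3b log2 ratio was −0.34 with an FDR of 1.38e-09 in the authors' deposited table. Its relative Kif3c had 4.57-fold in the KO list and 12.2-fold in the WT list beside its start, where I920046F24Rik also lies. The Kif3c log2 ratio was −0.61 with an FDR of 0.0138 in the authors' deposited table.

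Kif1b, which carries mitochondria and vesicle precursors, had 3′UTR peaks at 4.33-fold and 6.82-fold in the KO list, where the WT list had 1 peak of 13.0-fold over both. The Kif1b log2 ratios were −0.75 (FDR 0.0479) and −0.60 (FDR 0.00166) in the authors' deposited table. Kif13b had a log2 ratio of −0.27 with an FDR of 0.0603 in the authors' deposited table, with list folds in the opposite order, 3.47 in KO and 3.07 in WT. Kif13a, a motor of recycling endosomes, was at 14.9-fold (FDR 1e-39) in the KO list and 7.12-fold (FDR 2e-47) in the WT list, with no listed difference. Kif16b, an early endosome motor, had 3 peaks past the FDR in each list, from 3.14-fold to 5.44-fold in KO and from 3.45-fold to 6.12-fold in WT. Among kinesins listed in KO alone, Kif26b was at 16.5-fold (FDR 0.00141), while Kif7, Kif9 and Kif28 were each at 7.08-fold and Kif19a at 4.72-fold, with FDRs from 0.0891 to 0.689. Plk2, a polo-like kinase induced by stress and growth signals, had a 3′UTR peak at 4.83-fold in the KO list and 5.36-fold in the WT list. The Plk2 log2 ratio was −0.25 with an FDR of 0.000115 in the authors' deposited table.

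Set side by side, the transcription and other Cdk genes, transport kinesins and Plk2 had 31 of 54 KO peaks (57.4%) and 30 of 38 WT peaks (78.9%) at an FDR below 0.05, and the authors' deposited table has 12 of their peaks lower and 2 higher. The replication, cyclin, cell-cycle Cdk, mitotic, centromere and marker genes had 39 of 74 KO peaks (52.7%) and 34 of 69 WT peaks (49.3%), and the authors' deposited table has 6 of theirs lower and 3 higher. Over the whole lists the shares were 64.9% of KO peaks and 70.2% of WT peaks, and 69.6% of all peaks in the authors' deposited table are lower. The difference between these sets was not tested. Leaving Mki67 out, the authors' deposited table has 16 lower and 3 higher member peaks.

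By the authors' region labels, 71 of 128 member KO peaks were in the 3′UTR (55.5%, 46.4 to 64.3), beside 64.1% of the KO list. In the WT list 48 of 107 were (44.9%, 35.2 to 54.8), beside 59.6% of that list. Coding or other exons held 42 KO peaks (32.8%, whole list 25.6%) and 43 WT peaks (40.2%, whole list 27.4%), most of them in Mki67, Cenpe, Cenpf and the kinesins. At an FDR below 0.05 the 3′UTR share was 62.9% of KO peaks (whole list 69.8%) and 54.7% of WT peaks (whole list 63.1%). All 5 differential peaks labelled 5′UTR were lower in KO, with 88.7% of such peaks lower over the whole of the authors' deposited table. Of exon peaks 4 of 5 were lower (85.2% of all exon peaks) and of 3′UTR peaks 9 of 13 (63.2% of all 3′UTR peaks) in the authors' deposited table. Labels are those of the deposited files: of all KO peaks that cover a RefSeq start of their own gene, 23.3% carry the 3′UTR label, and of such WT peaks 26.9%. Of the member peaks, 8 in the KO list and 7 in the WT list lay outside the RefSeq gene that they are assigned to, and all 23 differential peaks lay inside it.

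Input RNA is listed for the 17 members with a differential peak, and 16 of them had a mean of at least 1 FPKM. The differences are KO minus WT of log2(FPKM + 1), a scale that understates differences of low genes. Mki67 had 5.29 FPKM in KO cells and 3.48 FPKM in WT cells, a difference of 0.49 and the largest of the members. In bulk RNA a change in the number of cycling cells and a change in RNA per cell cannot be told apart. Cdk9 had 25.2 FPKM in KO cells and 20.7 FPKM in WT cells, a difference of 0.27. Cenpo had 1.37 FPKM in KO cells and 1.05 FPKM in WT cells, a difference of 0.21. On the lower side, Plk2 had 24.7 FPKM in KO cells and 30.6 FPKM in WT cells, a difference of −0.30. Cdk20, with the highest peak ratio, had 2.48 FPKM in KO cells and 3.24 FPKM in WT cells, a difference of −0.28. Cdk18 had 38.1 FPKM in KO cells and 44.5 FPKM in WT cells, a difference of −0.22.

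The other listed members stayed closer. Mcm3 had 7.58 FPKM in KO cells and 6.83 FPKM in WT cells, Cdk12 had 2.99 FPKM in KO cells and 2.67 FPKM in WT cells, and Cenpb, the most abundant listed member, had 70.1 FPKM in KO cells and 67.3 FPKM in WT cells. Kif1b had 6.86 FPKM in KO cells and 6.89 FPKM in WT cells, and Kif3c had 2.97 FPKM in KO cells and 2.98 FPKM in WT cells. Cenpl, at 0.833 FPKM in KO cells and 0.832 FPKM in WT cells, was below the filter. The median of the 16 was 0.07 (−0.13 to 0.13), and that of the 3679 listed genes past the same filter was also 0.07. 10 of the 16 were higher in KO, and 8 lay above the median of all listed genes. On this scale none of the 16 passed a 1.5-fold difference in either direction, beside 1.22% of listed genes higher and 0.788% lower by that much. The plain ratio of Mki67 was 1.52, and it passed with a pseudocount of 0.1 FPKM in place of 1. The authors' adjusted p was 1 for each of the 17 in the authors' deposited table.

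**Figure D5:**
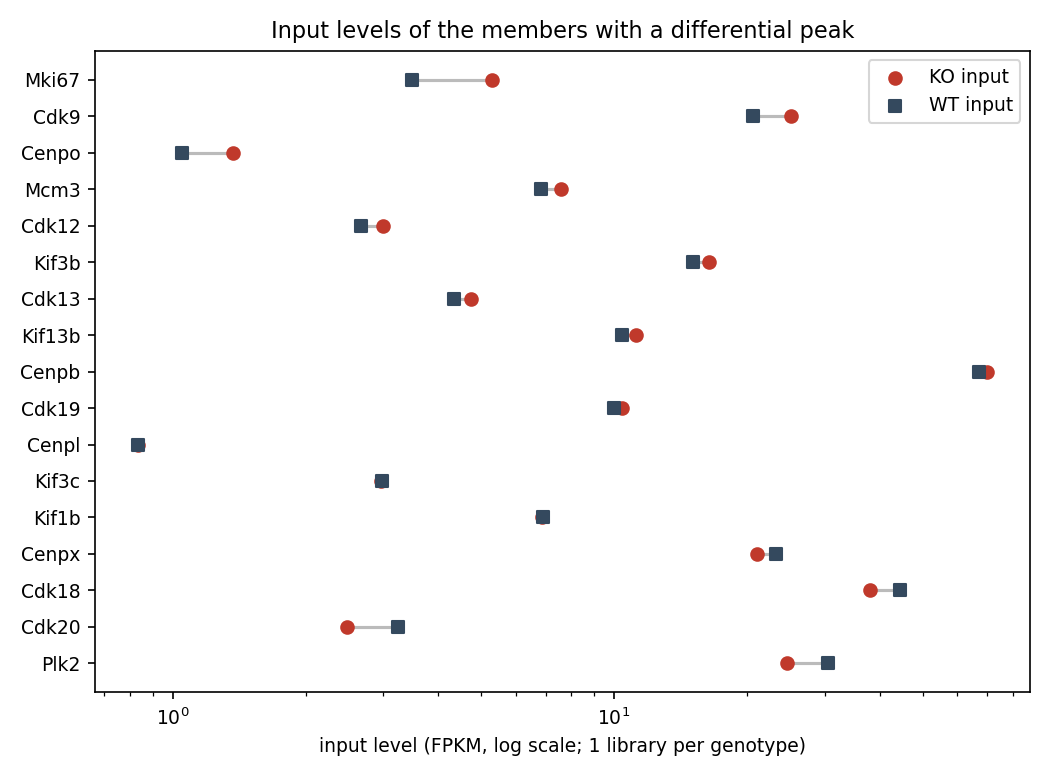
Input level in FPKM (x axis, log scale) of each member with a listed level, KO input and WT input as separate points on 1 line per gene. The pairs lie close together, and Mki67, at 5.29 FPKM in KO and 3.48 FPKM in WT, is farthest apart.

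Cell-cycle genes outside the name pattern were described from 4 lists of 17 to 20 genes. Beside their counts, 69.6% of all peaks in the authors' deposited table are lower in KO. Of the 13067 genes with an entry in any table, 11675 had a KO peak and 9875 a WT peak. Of 20 S phase genes, 14 had a KO peak and 9 a WT peak, and their 2 entries in the authors' deposited table both ran higher in KO. They were Pcna, the replication clamp, with a log2 ratio of 0.15 and an FDR of 0.0562, and Gins4, of the helicase complex, with 1.18 and an FDR of 0.0204 in the authors' deposited table. Of 20 RB-E2F and Cdk inhibitor genes, 12 had a KO peak and 12 a WT peak, and the authors' deposited table has 3 peaks lower and 1 higher. E2f6, a repressor of E2F targets, had a log2 ratio of −0.96, Rbl2, a pocket protein, −0.85 in a peak also under Aktip, and Rb1 −0.27 in a peak also under Lpar6, all at an FDR below 0.05 in the authors' deposited table. Cdkn1c, a Cdk inhibitor, had 0.37 and an FDR of 0.000417 in the authors' deposited table.

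Of 20 checkpoint and anaphase-promoting complex genes, 16 had a KO peak and 12 a WT peak. The authors' deposited table, where 69.6% of all peaks are lower, has 5 of their peaks lower and 1 higher. Of the 5 lower, 4 had an FDR below 0.05. Subunits of the anaphase-promoting complex, which tags mitotic cyclins for destruction, ran both ways. The higher peak was that of Anapc4, at 0.35 with an FDR of 0.0955 in the authors' deposited table. The lower ones were Cdc27 at −0.55, Anapc7 at −0.42, Cdc16 at −0.40, Anapc2 at −0.37 and Cdc26 at −0.37 on the log2 scale in the authors' deposited table. Of 17 cohesin and condensin genes, 13 had a KO peak and 11 a WT peak. The authors' deposited table, where 69.6% of all peaks are lower, has 6 of their peaks lower and 1 higher. Pds5b, a cohesin regulator, had the lowest ratio of that list, −1.41 with an FDR of 0.00126, and Nipbl, the cohesin loader, had −0.73 and −0.37 at its peaks in the authors' deposited table. Rad21, a cohesin subunit, had 0.74 with an FDR of 0.0794 in the authors' deposited table.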

How the data were processed

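Sample titles gave the KO and WT groups. Tools listed in the submitters' processing notes, with no role for each, are edgeR, StringTie, ChIPseeker, HOMER, HISAT2 and fastp, with mm10 as build. The peak caller was not given in the sources used here. Per the file headers, each peak of each genotype was deposited with a fold, the ratio of its IP to its input. Deposited p-values and log10-scale FDR scores come with the peaks, all at a p of at most 0.05. The deposited differential table holds log2 ratios, KO enrichment over WT enrichment. Input levels in FPKM were deposited for genes with a differential peak, and 370 entries have no level. The files hold no read totals, so depth is unknown and no precision follows from it.

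Member peaks, role counts and overlaps (at least 1 exonic base, strand ignored, as the lists give the strand of the gene) were computed with Python 3.11.15, pandas 2.3.3 and scipy 1.17.1. The overlap step was tested on simulated data. Reads of overlapping genes cannot be told apart, and positions are printed as listed. Input differences used a pseudocount of 1 FPKM and a mean of at least 1 FPKM.

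Members and lists were chosen with earlier results of these data known. Full values are given for members with a differential peak, the 3 highest folds in each list, members in 1 list only at 4-fold or more, and the 3 largest input differences each way; members named beyond these, for their role, were picked with their values in view. Alternatives were stricter fold, p, FDR, overlap and ratio limits, other pseudocounts and filters, and centring. The planned motif search under peaks was not run.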

Additional observations from a re-analysis of the deposited data

How the results depend on the processing

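Of 37 alternative values, 20 were classed as the same as the reported ones and 17 as moved. The lean of the differential peaks and the sign of the median input difference did not reverse. Both nearly vanished on centring, however, in values classed as the same. Against the table median the lower member peaks numbered 12, where 18 were reported. Centred on all listed genes, the median input difference was 0.0002. The order of the lists did reverse at a p of at most 1e-10, with more member peaks, a higher median fold and a higher 3′UTR share in WT. In the main setting KO was higher on each, at 128 peaks beside 107, 3.94-fold beside 3.92-fold and 55.5% beside 44.9%. The member peaks numbered 63 in the KO list and 53 in the WT list at 4-fold or more, 17 in KO and 20 in WT at a p of at most 1e-10, and 70 in KO and 64 in WT at an FDR below 0.05. At a p of at most 1e-10 the median fold was 5.44 in KO and 7.23 in WT, and the 3′UTR share was 58.8% in KO and 65% in WT. The share of WT peaks overlapping a KO peak was 39.3% with 50% reciprocal overlap and 84.4% at an FDR below 0.05. Lower differential peaks numbered 3 at an absolute log2 ratio of at least 1, in the authors' deposited table. Higher ones numbered 1 at an FDR below 0.05, 1 at an absolute log2 ratio of at least 1, 11 against the table median and 3 without Mki67. With a pseudocount of 0.1, 1 member, Mki67, passed a 1.5-fold input difference. The FDR limit on listed peaks and the count without Mki67 were chosen after seeing the data. No paired analysis was possible because each genotype has 1 IP and 1 input library, which also leaves no replicate to leave out. Read depth is not known, so a peak in 1 list alone cannot be told apart from a difference in depth.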

Other observations

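The list folds and the deposited ratio did not always point the same way. For the 23 differential peaks of members in the authors' deposited table, 17 had list folds in the order of the ratio, 3 had the opposite order (Cdk12 at its start, Kif13b and Cdk18) and 3 had a peak in 1 list only. Over the whole of the authors' deposited table, 539 of 5093 peaks with a peak in both lists and unequal folds (10.6%) had the opposite order. Where several listed peaks overlapped a position, the highest fold was used. At the Cdk12 start the gap was widest among members, with 17.7-fold in KO and 3.38-fold in WT beside a log2 ratio of −0.60 in the authors' deposited table.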
